A study of Mus musculus with 6 samples.

Results

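The collagen genes and the genes of the lysyl oxidases and lysyl hydroxylases that modify collagen were described in 3 kinds of cultured mouse cells. Members were the non-control array probes whose RefSeq accession names a collagen chain (Col, a number, a and a number), Lox, a Loxl gene or a numbered Plod gene. The rule found 39 of 41006 probes, which stand for 35 of 12323 named genes: 29 collagen chains, 3 lysyl oxidases and 3 lysyl hydroxylases. The RefSeq gene list holds 52 genes that match the rule, so 17 matching genes had no named probe here and are not analysed, among them Col2a1, Col3a1, Col5a2, Col4a2, Col6a3, Loxl1 and Loxl4. No measured value entered the choice of members, although the set was proposed with earlier results of these data known.

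Total RNA was hybridized to 6 Agilent oligonucleotide arrays, 2 biological replicates per kind of cell by the series' design. Each array carried the sample in Cy3 and a common reference in Cy5, a pool of RNA from mouse cell lines that included embryo fibroblasts, and the dyes were not swapped. Multipotent adult progenitor cells (MAPC) were raised from bone marrow at 5% oxygen and 2% serum with EGF and PDGF-BB at 10 ng/mL and leukemia inhibitory factor (LIF). CD45+ and Ter119+ cells were removed after 4 weeks, the rest were replated at 10 cells per well, and cells past 80 population doublings were used. Embryonic stem cells (ESC, C57BL/6) were kept in 15% serum with LIF on irradiated mouse embryonic fibroblasts and were put into feeder-free culture before RNA collection. Neurospheres (NS, C57BL/6) came from the forebrain of E11.5 embryos and were grown with bFGF and EGF at 20 ng/mL. The labels describe both MAPC arrays with 1 clone of high Oct4 and give MAPC no strain, so the spread between MAPC arrays is not a spread between clones. Kind of cell, serum, oxygen and growth factors differ together between the groups and cannot be told apart.

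Collagens are triple helices of 3 chains. Fibrillar chains assemble into the cable-like fibrils of connective tissue, type IV chains form the sheet of basement membranes, and further chains decorate fibrils, anchor epithelia or span the cell membrane. In the endoplasmic reticulum (ER) prolyl and lysyl hydroxylases modify the chains before they fold, and outside the cell lysyl oxidases convert lysines and hydroxylysines to the aldehydes that cross-link fibrils. Type IV collagen and its cross-linking are hallmarks of cells that lay down basement membrane, whereas type I collagen and Lox are typical products of fibroblasts.

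Between 91.9% and 99.6% of 41034 probe spots were well above background on an array, by the scanner software's own mark. Marker genes were read against the labels. Pou5f1, which encodes Oct4, had log2 ratios to the reference of 3.38 and 2.90 in ESC, 0.90 and 1.33 in MAPC and -0.25 and -0.29 in NS. Of 6 pluripotency markers, 0 were higher and 6 lower in MAPC than in ESC, where 29.3% of all named genes were lower. Against NS 3 were higher and 2 lower, beside 28.8% and 26.3% of all named genes. Esrrb differed by only -0.24 in MAPC minus ESC and did not exceed the 99th percentile of the negative controls on MAPC array 1. Sox2, which neural progenitors express too, had mean ratios of -0.09 in MAPC, 5.47 in ESC and 5.55 in NS. The neural progenitor gene Nes stood at 3.07 and 3.10 in NS and at most at 0.56 elsewhere. Sox17, an endoderm gene, stood at 5.31 and 5.32 in MAPC and below 0 on the 4 other arrays. The reference signal of both genes moved with the groups. On the log2 scale MAPC differed from ESC and NS in that channel by -2.24 and -2.79 for Sox2, and by 1.36 and 0.79 for Sox17. With the sample channel alone these differences were -7.11 and -7.87 for Sox2, and 6.63 and 6.35 for Sox17. The blood marker Ptprc encodes the CD45 used for depletion. It did not exceed the 99th percentile of the negative controls on either MAPC array, nor on ESC array 2 or either NS array. No member spot was saturated on any array. Col9a3, Col17a1 and Col19a1 did not exceed the 99th percentile of 314 negative control spots on some arrays, Col9a3 on none of the MAPC and ESC arrays.

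Levels are given as log2 ratios of sample over reference signal, and a gene with several probes is counted by its brightest probe. Differences are given as the first group minus the second on the log2 scale with the moderated standard error (SE) of a limma fit of all 6 arrays. Adjusted p-values are Benjamini-Hochberg values over all probes tested in a comparison, with a threshold of 0.05. Ratios of different probes are not set against each other, since a ratio also depends on the reference. In these bulk cultures fewer cells making a transcript and less RNA per cell cannot be told apart.

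Most members differed between the cell kinds, and in both directions. In MAPC against ESC 9 genes were higher and 15 lower, with 11 not past the threshold. Over all named genes 50.4% passed in that comparison (21.1% higher and 29.3% lower), against 68.6% of the members. MAPC against NS gave 10 higher and 14 lower, 68.6% of the members beside 55.1% of all named genes (28.8% higher, 26.3% lower). ESC against NS gave 15 higher and 8 lower, 65.7% beside 51.1% (29.4% higher, 21.6% lower). With more than 1 in 2 named genes passing, the threshold alone says little about a gene, and differences of at least 2-fold separated the members more. At 2-fold or more, 6 members were higher and 10 lower in MAPC than in ESC, 45.7% of the members beside 12.8% of all named genes (4.40% higher, 8.44% lower). In MAPC against NS 6 members were higher and 6 lower by that measure, 34.3% beside 16.3% (7.14% and 9.12%). In ESC against NS 9 were higher and 3 lower, 34.3% beside 13.4% (7.67% and 5.69%). The median difference of the members stayed near 0, at -0.12, -0.09 and 0.06 in the 3 comparisons, beside -0.01, 0.04 and 0.03 for all named genes. Past the threshold, 12 members were highest in ESC over both other kinds, 9 in MAPC and 5 in NS, while 9 had no such group. Over 12109 named genes these shares were 16.3% for ESC, 15.5% for MAPC and 16.2% for NS. MAPC lay below both other kinds in 11 members, and ESC and NS in 2 each, beside 16.1%, 6.72% and 16.5% of the named genes.

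**Figure D1:**
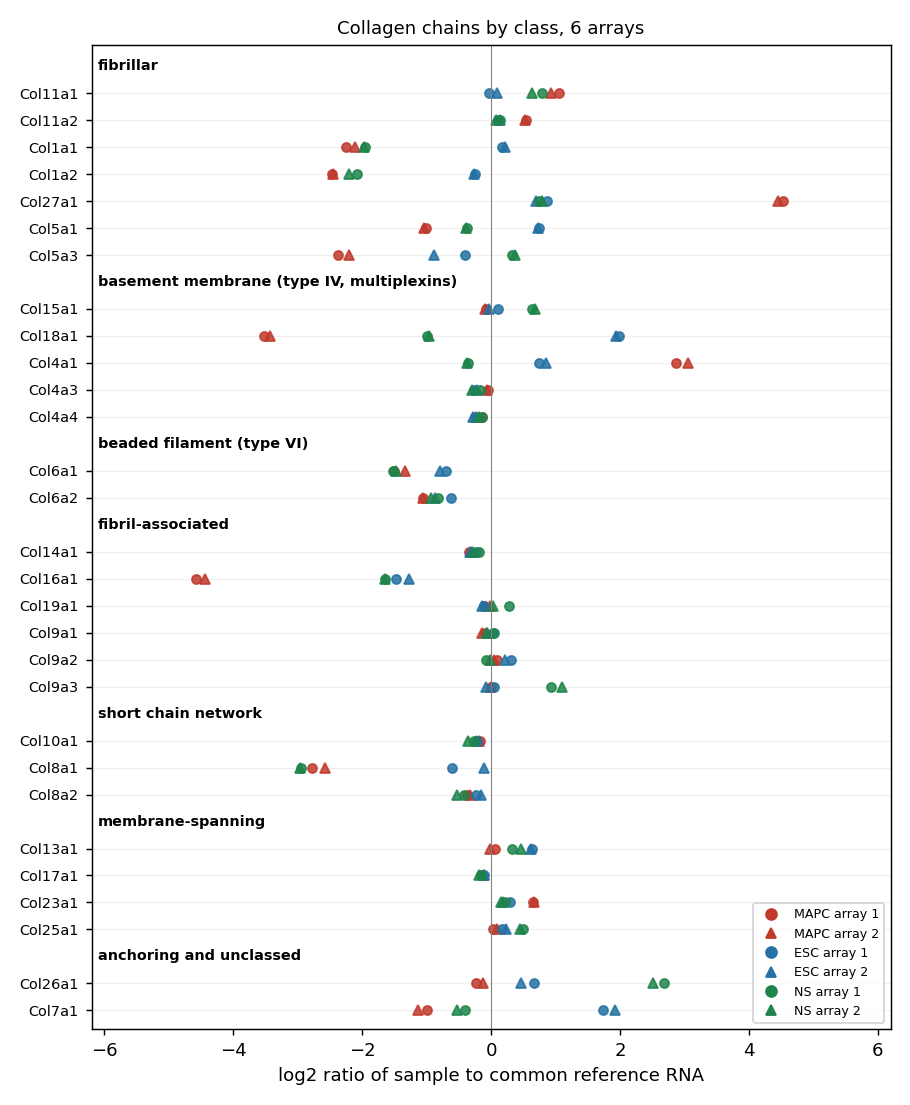
Log2 ratio of sample to common reference (horizontal axis) for the brightest probe of each of 29 collagen genes, grouped by class, with 1 point per array (MAPC red, ESC blue, NS green; circles array 1, triangles array 2). MAPC lies far to the right for Col27a1 (4.52 and 4.46) and Col4a1 (2.87 and 3.05), and far to the left for Col18a1 (-3.53 and -3.43) and Col16a1.

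Upstream sequence is shown for members that share a pattern of levels and whose RefSeq promoter entry (build GRCm38.p6) does not overlap any annotated gene span: Col1a2, Col7a1 and Col8a1, highest in ESC, and Plod1, highest in MAPC. The windows hold the 250 bases before the annotated start, 5′ to 3′ on the gene's strand. They are Col1a2 (chr6:4505368-4505617, plus strand), Col7a1 (chr9:108953336-108953585, plus strand), Col8a1 (chr16:57754738-57754987, minus strand) and Plod1 (chr4:147936777-147937026, minus strand). Capitals mark CCAAT, the letters that the factor NF-Y binds, and GGGCGG, the core letters of GC boxes bound by Sp1-family factors, each searched on both strands, so that ATTGG and CCGCCC are marked too.
Col1a2: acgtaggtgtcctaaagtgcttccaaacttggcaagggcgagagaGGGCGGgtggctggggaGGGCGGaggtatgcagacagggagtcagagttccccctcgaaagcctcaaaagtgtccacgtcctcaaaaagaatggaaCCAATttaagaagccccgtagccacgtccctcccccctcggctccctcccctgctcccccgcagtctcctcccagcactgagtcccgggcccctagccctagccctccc
Col7a1: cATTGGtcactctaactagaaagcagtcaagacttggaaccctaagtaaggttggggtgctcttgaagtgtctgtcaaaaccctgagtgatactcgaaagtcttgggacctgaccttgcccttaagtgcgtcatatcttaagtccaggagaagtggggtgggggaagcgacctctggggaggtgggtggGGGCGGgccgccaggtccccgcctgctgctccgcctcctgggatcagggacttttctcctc
Col8a1: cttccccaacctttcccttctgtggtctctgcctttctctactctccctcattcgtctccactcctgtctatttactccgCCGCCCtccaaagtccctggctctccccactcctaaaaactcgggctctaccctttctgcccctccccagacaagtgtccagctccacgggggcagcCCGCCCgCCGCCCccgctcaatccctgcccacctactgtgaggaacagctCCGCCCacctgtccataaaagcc
Plod1: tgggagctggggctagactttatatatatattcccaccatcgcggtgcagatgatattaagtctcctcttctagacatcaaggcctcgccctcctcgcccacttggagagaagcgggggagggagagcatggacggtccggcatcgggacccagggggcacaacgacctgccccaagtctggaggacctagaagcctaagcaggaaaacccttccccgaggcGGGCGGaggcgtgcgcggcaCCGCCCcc
No matches overlap in these windows. Col1a2 and Col7a1 hold 1 CCAAT each, and Col8a1 and Plod1 hold 0. GGGCGG occurs 2 times in Col1a2, 1 time in Col7a1, 4 times in Col8a1 and 2 times in Plod1. A match on either strand is common: of 27025 windows of this length, 34.5% hold CCAAT and 32.9% hold GGGCGG. Of the 26 members with an entry, 10 hold CCAAT and 16 hold GGGCGG. These matches describe letters and not binding sites.

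Of 7 fibrillar chains measured, all passed the threshold in MAPC against ESC, 4 lower and 3 higher. Of all named genes 50.4% passed in that comparison (29.3% lower and 21.1% higher). The type I chains were far lower in MAPC and NS than in ESC. Col1a1, which encodes the chain present in 2 copies in type I collagen, stood at -2.25 and -2.11 in MAPC, 0.17 and 0.21 in ESC and -1.96 and -1.97 in NS. The ESC arrays were high and the others low, with no overlap. The differences were -2.37 ± 0.06 (SE; adjusted p = 1.11e-07) for MAPC minus ESC, which is 5.18-fold, and 2.16 ± 0.06 (adjusted p = 1.8e-07) for ESC minus NS. Its partner chain Col1a2 stood at -2.46 and -2.46 in MAPC, -0.25 and -0.26 in ESC and -2.08 and -2.21 in NS. The order of the groups is the same as for Col1a1, with ESC 4.61-fold above MAPC and 3.70-fold above NS (adjusted p = 1.37e-07 and 2.85e-07). MAPC and NS differed little in both genes, by -0.21 (adjusted p = 0.0269) for Col1a1 and -0.32 (adjusted p = 0.00369) for Col1a2. Both of these small calls were lost when the sample channel was used alone (adjusted p = 0.637 and 0.256). The Col1a1 call was also lost without MAPC array 1, NS array 1 or NS array 2, at adjusted p between 0.093 and 0.149.

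Col5a1, a minor chain that sits inside type I fibrils and limits their width, followed type I collagen. It stood at -1.02 and -1.04 in MAPC, 0.75 and 0.72 in ESC and -0.37 and -0.39 in NS. Each kind formed a separate level, with MAPC 3.40-fold below ESC (adjusted p = 1.66e-07) and 1.57-fold below NS (adjusted p = 2.17e-05). Col5a3, another type V chain, had a different order, with NS on top. Its brightest probe stood at -2.38 and -2.21 in MAPC, -0.40 and -0.89 in ESC and 0.33 and 0.37 in NS. MAPC lay 6.24-fold below NS and 3.14-fold below ESC (adjusted p = 2.62e-06 and 5.23e-05). A dimmer Col5a3 probe did not follow: its differences were 0.00, 0.08 and 0.08 in the 3 comparisons and none passed, so the pattern rests on 1 of 2 probes.

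Col27a1, a fibrillar chain best known from cartilage, was the fibrillar member with the largest difference and the opposite direction. It stood at 4.52 and 4.46 in MAPC, 0.86 and 0.69 in ESC and 0.74 and 0.80 in NS. MAPC was high on both arrays while ESC and NS overlapped, at 3.71 ± 0.07 above ESC (13.1-fold, adjusted p = 2.75e-08) and 3.72 ± 0.07 above NS (13.2-fold, adjusted p = 1.47e-08). ESC and NS differed by 0.01 (adjusted p = 0.956). Of the cartilage-type chains of the class, Col11a1 was higher in MAPC than in ESC by 0.96 (adjusted p = 3.54e-05) and than in NS by 0.28 (adjusted p = 0.0222), and Col11a2 by 0.41 and 0.43. The Col11a1 call against NS was lost without MAPC array 1 or NS array 2 (adjusted p = 0.124 and 0.143).

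Of 5 basement membrane chains measured, 2 differed strongly, and in opposite directions. Col4a1, a chain of the type IV network found in nearly all basement membranes, stood at 2.87 and 3.05 in MAPC, 0.75 and 0.85 in ESC and -0.35 and -0.38 in NS. The 3 kinds formed separate levels, MAPC highest and NS lowest. MAPC exceeded ESC by 2.17 ± 0.07 (4.49-fold, adjusted p = 3.46e-07) and NS by 3.33 ± 0.07 (10.0-fold, adjusted p = 2.72e-08), and ESC exceeded NS by 1.16 (adjusted p = 7.86e-06). These ratios are not the full difference in sample signal, because the reference signal of this spot moved with the groups. The background-subtracted Cy5 signal of Col4a1 was 8890 and 9150 on the MAPC arrays, 1660 and 2010 on the ESC arrays and 1560 and 1780 on the NS arrays, although the reference RNA is meant to be common. The Cy3 signal was 41160 and 39640 in MAPC, 1264 and 1456 in ESC and 520 and 547 in NS. With the sample channel alone the differences were 4.94 against ESC and 6.12 against NS for MAPC, and 1.18 between ESC and NS. Over all probes a reference difference of 2-fold or more was rare. It occurred at 0.45% of 39105 probes in MAPC against ESC and 0.578% of 39083 in MAPC against NS. Some genes with large sample channel differences had one too. In MAPC minus NS the reference differed by -4.91 for Fabp7 and -1.89 for Hes5 (sample channel -8.88 and -5.95). Others did not. In MAPC minus ESC it differed by 0.07 for Postn and -0.17 for Col18a1 (sample channel -6.53 and -5.71). Why the reference signal differed was not tested. Among the other brightest member probes the next largest reference difference was that of Col27a1, 0.80 against ESC.

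**Figure D2:**
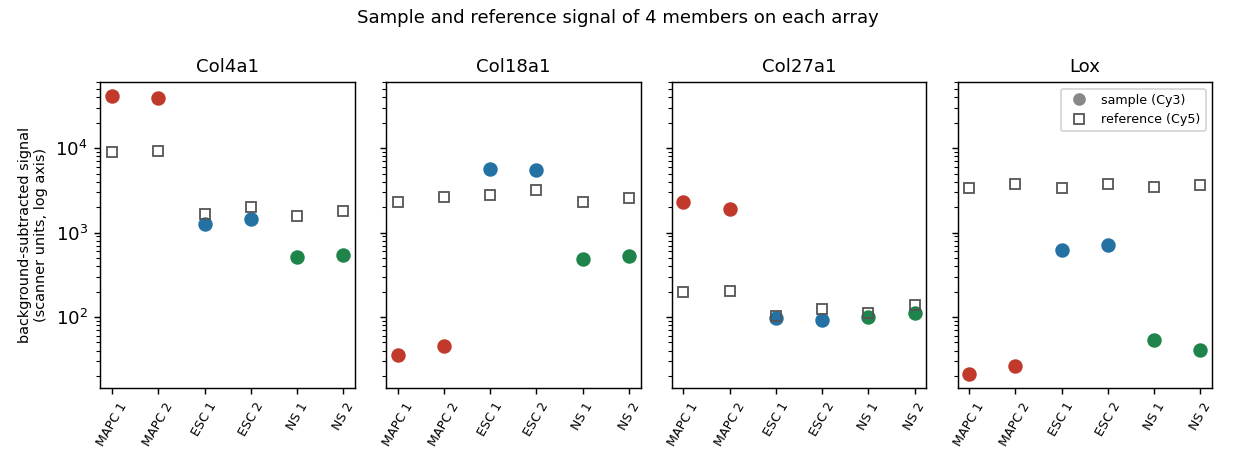
Background-subtracted signal in scanner units (log axis) of the sample channel (filled circles) and the reference channel (open squares) on each of the 6 arrays, for Col4a1, Col18a1, Col27a1 and Lox. The reference squares of Col4a1 reach 8890 and 9150 on the MAPC arrays and at most 2010 on the others, while those of Lox lie between 3370 and 3800 on all 6 arrays.

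Col18a1, a heparan sulfate-bearing collagen of basement membranes and the source of the fragment endostatin, showed the largest difference in ratio of any member. In the sample channel alone its difference of MAPC minus ESC was -5.71, smaller in size than that of Col4a1 in MAPC minus NS. Col18a1 stood at -3.53 and -3.43 in MAPC, 1.99 and 1.94 in ESC and -0.99 and -0.97 in NS. ESC was high, NS intermediate and MAPC lowest, with no overlap. MAPC was lower than ESC by -5.44 ± 0.06 (43.5-fold, adjusted p = 8e-09) and than NS by -2.50 ± 0.06 (5.65-fold, adjusted p = 3.47e-08). ESC exceeded NS by 2.95 (adjusted p = 3.8e-08). Its Cy3 signal was 35.5 and 45.9 in MAPC against 5606 and 5578 in ESC. Over the alternatives in processing the Col18a1 difference of MAPC minus ESC ranged from -6.38 to -3.69, so its size depends on the processing. Col15a1, the other member of that subfamily, had its highest level in NS, with differences of -0.75 for MAPC minus NS (adjusted p = 3.38e-05) and -0.63 for ESC minus NS (adjusted p = 0.00011, or 0.133 with the sample channel alone). The chains Col4a3 and Col4a4, which replace Col4a1 in specialised membranes such as that of the kidney glomerulus and are neighbours in the genome, differed by at most 0.18 in any comparison. Only the Col4a3 difference of MAPC minus NS, 0.18, passed (adjusted p = 0.0472), and it did not pass with array number as a block (adjusted p = 0.0511). In MAPC against ESC 1 basement membrane chain was higher and 1 lower, with 3 not past the threshold. These calls are 40.0% of the class, below the 50.4% of all named genes.

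The other collagens, 17 genes, held 8 lower and 1 higher in MAPC than in ESC, 52.9% beside the 50.4% of all named genes, a share near the background. Col16a1, a chain associated with fibrils, stood at -4.58 and -4.44 in MAPC, -1.48 and -1.27 in ESC and -1.64 and -1.65 in NS. Both MAPC arrays were far below the others, by 8.78-fold against ESC (adjusted p = 1.09e-07) and 7.28-fold against NS (adjusted p = 9.47e-08). ESC and NS differed by 0.27 only (adjusted p = 0.0356), a call that was lost without ESC array 2 or either NS array (adjusted p = 0.176, 0.128 and 0.129).

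Col7a1, the chain of the fibrils that anchor epithelium to the underlying stroma, stood at -0.996 and -1.13 in MAPC, 1.74 and 1.92 in ESC and -0.41 and -0.53 in NS. ESC was high and both other kinds low, with ESC 7.41-fold above MAPC and 4.92-fold above NS (adjusted p = 1.61e-07 and 4.63e-07). Col8a1, a short-chain collagen of vessel walls and the cornea, stood at -2.78 and -2.57 in MAPC, -0.60 and -0.12 in ESC and -2.95 and -2.97 in NS. ESC exceeded MAPC 4.98-fold and NS 6.05-fold (adjusted p = 8.98e-06 and 4.4e-06), with a wider spread between the ESC arrays than for most members. MAPC and NS differed by 0.28 (adjusted p = 0.167).

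NS was highest in 5 of 35 members, fewer than ESC or MAPC and near the 16.2% of all named genes. Col26a1, a collagen with no settled class, stood at -0.23 and -0.12 in MAPC, 0.67 and 0.46 in ESC and 2.68 and 2.52 in NS. NS exceeded MAPC 6.86-fold and ESC 4.10-fold (adjusted p = 1.62e-07 and 1.24e-06). A dimmer Col26a1 probe differed by at most 0.10 in size in any comparison and passed in none, so this result too rests on 1 of 2 probes. Col9a3, a chain of the type IX collagen of cartilage, stood at 0.92 and 1.10 in NS. It was not well above background on any MAPC or ESC array, where its ratios lay between -0.08 and 0.05. NS was at least 1.85-fold higher than MAPC and at least 1.82-fold higher than ESC (adjusted p = 1.61e-05 and 1.87e-05). These bounds set the NS mean against the lowest signal well above background on each dim array, and they hold for this processing only. Without background subtraction the Col9a3 differences were -0.22 for MAPC minus NS and -0.22 for ESC minus NS. With median centring they were -0.55 and -0.67.

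The remaining members of these classes differed by less than 2-fold. The beaded filament chains of type VI collagen, Col6a1 and Col6a2, were lower in MAPC than in ESC by -0.67 (adjusted p = 0.000198, or 0.102 with the sample channel alone) and -0.30 (adjusted p = 0.026), and Col6a1 was 0.75 higher in ESC than in NS. The Col6a2 call was lost without MAPC array 1, MAPC array 2 or ESC array 1, at adjusted p of 0.0889, 0.0927 and 0.109. Of the membrane-spanning chains, Col23a1 was highest in MAPC, Col13a1 highest in ESC and Col25a1 highest in NS, with largest differences of 0.48, 0.61 and 0.42 in size. The difference of Col13a1 between ESC and NS, 0.23 (adjusted p = 0.0233), was lost without either ESC array or NS array 1 (adjusted p = 0.0841, 0.0628 and 0.155). With the sample channel alone Col25a1 no longer differed past the threshold from MAPC or ESC to NS (adjusted p = 0.833 and 0.378). Col10a1, Col14a1, Col17a1, Col4a4 and Col9a1 passed in no comparison by their brightest probe. A dimmer Col14a1 probe was lower in MAPC by -0.29 against ESC and -0.25 against NS (adjusted p = 0.00475 and 0.00786). Col19a1, Col8a2 and Col9a2 passed only with differences of at most 0.31 in size.

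**Figure D3:**
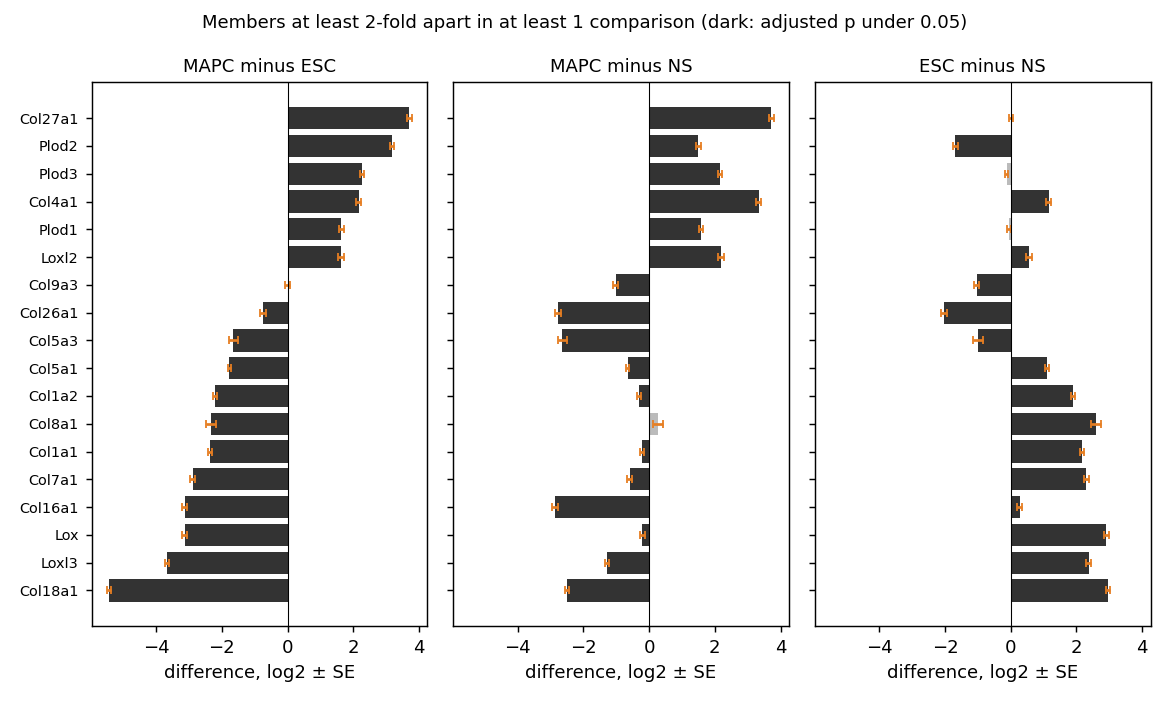
Difference of group means (log2, horizontal axis, bars from 0) with its standard error (orange) for the 18 members at least 2-fold apart and past the threshold in at least 1 comparison, with 1 panel per comparison. Bars are dark where the adjusted p is under 0.05 and grey otherwise; Col18a1 reaches -5.44 in the left panel and Col27a1 3.72 in the middle panel.

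The 3 lysyl oxidases split. Lox, the founding enzyme that cross-links fibrillar collagen and elastin, followed type I collagen. It stood at -4.30 and -4.22 in MAPC, -1.22 and -1.04 in ESC and -4.01 and -4.07 in NS. Both ESC arrays lay above the 4 others, with ESC 8.73-fold above MAPC (difference -3.13 ± 0.07, adjusted p = 6.14e-08) and 7.52-fold above NS (2.91 ± 0.07, adjusted p = 9.76e-08). MAPC and NS differed by -0.21 (adjusted p = 0.0478), and leaving out any single MAPC or NS array removed that call (adjusted p from 0.0712 to 0.2). Loxl3, an oxidase of the same family, stood at -3.21 and -3.16 in MAPC, 0.40 and 0.54 in ESC and -1.92 and -1.89 in NS. The kinds formed 3 levels, with MAPC 12.6-fold below ESC and 2.44-fold below NS (adjusted p = 2.33e-08 and 1.54e-06). Without background subtraction these differences, -3.66 and -1.28 on the log2 scale, were -2.23 and -0.50.

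Loxl2, the family member known for cross-linking type IV collagen in basement membrane, ran the other way. It stood at 3.40 and 3.25 in MAPC, 1.83 and 1.56 in ESC and 1.14 and 1.13 in NS. MAPC was highest and NS lowest, as for Col4a1, with MAPC 3.09-fold above ESC and 4.55-fold above NS (adjusted p = 6.11e-06 and 8.13e-07). ESC exceeded NS by 0.56 (adjusted p = 0.00218, or 0.0582 with the sample channel alone).

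All 3 lysyl hydroxylases were higher in MAPC than in both other kinds, beside 15.5% of all named genes. These hydroxylases make the hydroxylysines that carry sugars and stable cross-links. Plod1 stood at 2.08 and 2.21 in MAPC, 0.52 and 0.50 in ESC and 0.60 and 0.53 in NS. MAPC was 3.11-fold above ESC and 3.00-fold above NS (adjusted p = 6.86e-07 and 5.08e-07), while ESC and NS differed by -0.05 (adjusted p = 0.616). Plod2, which hydroxylates the ends of fibrillar chains, stood at 2.75 and 2.89 in MAPC, -0.36 and -0.35 in ESC and 1.28 and 1.36 in NS. It was the only hydroxylase past the threshold in all 3 comparisons. MAPC was 9.06-fold above ESC and 2.83-fold above NS (adjusted p = 3.53e-08 and 7.31e-07). Plod3, which also transfers the sugars and serves type IV collagen, stood at 1.24 and 1.24 in MAPC, -1.06 and -1.01 in ESC and -0.89 and -0.93 in NS. MAPC was 4.82-fold above ESC and 4.43-fold above NS (adjusted p = 5.86e-08 and 4.28e-08).

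The wider machinery that modifies and folds chains in the ER was mostly higher in MAPC as well. Of 12 measured genes of a list of 15, 10 were higher and 2 lower in MAPC than in ESC, and 10 were higher and 1 lower than in NS, with 8 higher by at least 2-fold in each comparison. These calls are 100.0% and 91.7% of the list, beside 50.4% and 55.1% of all named genes. The median difference of the list was 1.54 against ESC and 1.83 against NS, beside -0.01 and 0.04 for all named genes. The prolyl 4-hydroxylase subunits P4ha1, P4ha2 and P4hb were higher in MAPC than in ESC by 1.82, 2.71 and 1.71, and than in NS by 1.07, 2.57 and 1.84. Serpinh1, the collagen-specific chaperone Hsp47, stood at 3.49 and 3.61 in MAPC, 0.73 and 1.07 in ESC and 1.68 and 1.71 in NS, and the MAPC arrays lay above all others. The galactosyltransferase Colgalt1 was higher in MAPC by 2.53 and 2.57. A dimmer Colgalt1 probe was higher by 0.96 and 0.94 (adjusted p = 1.99e-05 and 1.59e-05). The prolyl 3-hydroxylase P3h1 was higher by 2.30 and 2.90, its partner Crtap by 1.27 and 1.87, and the prolyl isomerase Fkbp10 by 1.37 and 1.83. P3h3, a related prolyl 3-hydroxylase, was the exception, at -1.41 and -1.41 in MAPC, 0.81 and 0.72 in ESC and 1.12 and 1.11 in NS, lower in MAPC by -2.17 and -2.53 (adjusted p = 9.43e-08 and 2.81e-08), or -0.87 and -1.10 without background subtraction. P4ha3 was lower than in ESC by -0.31 (adjusted p = 0.0406). Of the 6 measured genes for export of large cargo from the ER, 4 were higher in MAPC than in ESC, 5 than in NS and 0 lower, which is 66.7% and 83.3% of the list (21.1% and 28.8% of all named genes were higher). The coat protein gene Sec24d was higher by 2.81 and 3.74, and Sec13, another coat gene, by 1.29 and 1.48. In ESC against NS no gene of either list reached 2-fold.

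**Figure D4:**
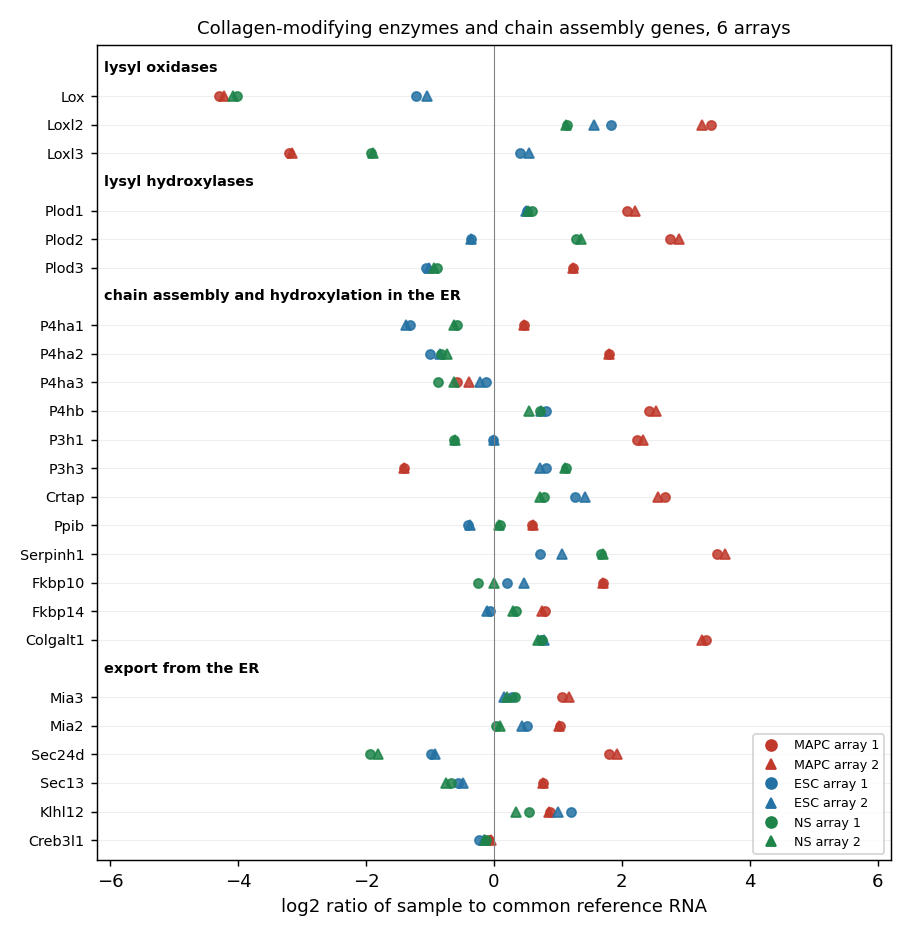
Log2 ratio of sample to common reference (horizontal axis) on each of 6 arrays for the lysyl oxidases, lysyl hydroxylases, chain assembly and hydroxylation genes of the ER and export genes (MAPC red, ESC blue, NS green). The MAPC points lie to the right of both other kinds for Plod1, Plod2, Plod3, Serpinh1 and Sec24d, and to the left for Loxl3 and P3h3. For Lox the MAPC points lie close to those of NS and far to the left of ESC.

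Genes that act on collagen outside the cell were listed by role. Of 5 genes of propeptide removal measured, 0 were higher and 2 lower in MAPC than in ESC, 40.0% beside the 50.4% of all named genes. Pcolce2, an enhancer of procollagen cleavage, was lower by -4.66 (adjusted p = 2.05e-08), and the protease Tll1 by -1.31 (-0.52 without background subtraction). Pcolce2 was also lower than in NS by -1.73 (adjusted p = 9.72e-07), or -0.57 without background subtraction. Of 10 partners of fibrils, 1 was higher and 5 lower in MAPC than in ESC, 60.0% beside that 50.4%. The small proteoglycans Dcn and Bgn, which coat fibrils, were lower by -2.95 and -3.50, and the matrix protein Fbln2 by -3.27. Postn, the matricellular protein periostin, was not well above background in MAPC, where its ratios were -3.68 and -3.78. It stood at 3.06 and 2.32 in ESC and -1.09 and -0.99 in NS. With the processing used for these ratios, ESC was at least 80.7-fold and NS at least 5.78-fold higher than MAPC (adjusted p = 2.51e-07 and 1.74e-05). Both bounds hold for that processing only. Over the alternatives the smallest Postn differences in size were -4.18 for MAPC minus ESC and -1.02 for MAPC minus NS. Sparc, which binds both type I and type IV collagen, was the 1 partner higher in MAPC, at 1.94 and 2.04 beside -0.18 and -0.06 in ESC and -1.02 and -1.09 in NS. Against NS, Lum was lower in MAPC by -1.68, Dcn by -2.26 and Fbln2 by -3.28.

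Both measured basement membrane partners of a list of 5 were highest in MAPC and lowest in NS. The nidogens link the laminin and type IV networks. Nid2 stood at 3.40 and 3.41 in MAPC, 2.10 and 1.96 in ESC and -0.43 and -0.47 in NS, and Nid1 had the same order of groups. MAPC exceeded ESC by 1.38 and 0.91 for Nid2 and Nid1 (adjusted p = 1.46e-06 and 0.00113) and NS by 3.86 and 2.60 (adjusted p = 8e-09 and 2.15e-06). Of 10 collagen-degrading enzymes, 0 were higher and 7 lower in MAPC than in ESC, 70.0% called beside 50.4% of all named genes (29.3% lower). Against NS 0 were higher and 4 lower, and their 40.0% stands below the 55.1% of all named genes (26.3% lower). The collagenase Mmp14 was lower by -1.64 against ESC and -2.12 against NS, where 1 NS array had no value. Mmp3 was lower than in ESC by -3.87 and the bone protease Ctsk by -1.71, and Mmp15 was lower than in NS by -3.45. A dimmer Mmp15 probe differed from NS by -0.57 (adjusted p = 0.000172). Of 5 inhibitors, 2 were lower in MAPC than in ESC, 40.0% beside 50.4%, with Timp3 at -1.22 and Timp1 at -0.94. A dimmer Timp3 probe differed from ESC by -0.25 (adjusted p = 0.0149). Against NS 3 were higher and 1 lower, 80.0% beside 55.1%, with Timp1 at 1.77 and Timp2 at 1.06, and Timp4 was lower at -2.26. Only 3 of 10 collagen receptor genes were measured, and none reached 2-fold.

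Fibroblast markers moved in the same direction as the type I chains, Lox and Loxl3. ESC had been kept on fibroblasts and were put into feeder-free culture before RNA collection. Of 11 measured markers of a list of 15, 0 were higher and 10 lower in MAPC than in ESC, and 10 were higher and 1 lower in ESC than in NS. These calls are 90.9% and 100.0% of the markers, and of all named genes 29.3% were lower in the first comparison and 29.4% higher in the second. Their summed background-subtracted Cy3 signal was 20000 and 23800 on the ESC arrays, 3740 and 3930 on the MAPC arrays and 3420 and 4530 on the NS arrays. Tagln, a smooth muscle and fibroblast actin-binding gene, stood at 0.77 and 1.02 in ESC and between -2.29 and -1.60 elsewhere. The mesenchymal transcription factor Twist1 was higher in ESC than in MAPC and NS, with a difference of -2.12 for MAPC minus ESC and adjusted p of 5.43e-06 and 3.34e-05. The fibroblast activation gene Fap did not exceed the 99th percentile of the negative controls on either MAPC array. Dcn and Fap are also on the lists of fibril partners and of degrading enzymes, and Lum is on the first. Lyz2, a macrophage gene, also stood higher in ESC, at 0.82 and 0.98 against values from -2.25 to -1.90 on the other arrays. It was 1 of 3 blood genes measured of a list of 6, and the other two, Ptprc and Itgam, did not pass between MAPC and ESC (differences of 0.29 and 0.06, adjusted p = 0.139 and 0.45). What part fibroblast RNA has in the ESC levels of collagen genes was not tested.

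**Figure D5:**
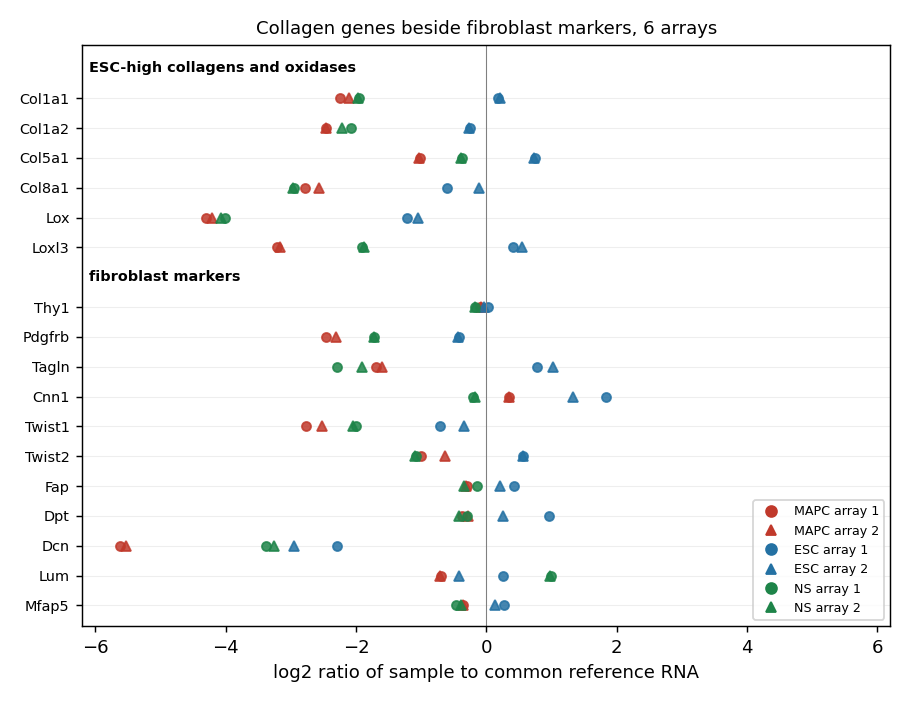
Log2 ratio of sample to common reference (horizontal axis) on each of 6 arrays for 6 members highest in ESC and for 11 fibroblast markers (MAPC red, ESC blue, NS green). The ESC points lie to the right of both other kinds for Col1a1, Lox, Tagln and Twist1, whereas Lum is highest in NS.

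Background correction set the size of many of these differences. Without subtraction of the local background the MAPC minus ESC differences of Lox, Col1a1, Col1a2 and Col5a1 were -1.42, -1.23, -1.05 and -0.65, those of Col16a1, Col7a1, Col8a1 and Col5a3 were -1.74, -1.78, -1.28 and -0.70, and the ESC minus NS differences of Lox and Col8a1 were 1.41 and 1.40. In MAPC minus NS, Col18a1 stood at -1.14, Col16a1 at -1.54, Col26a1 at -1.38 and Col5a3 at -1.38 in that setting. In ESC minus NS, Col1a1 stood at 1.18, Col1a2 at 0.97, Col5a1 at 0.49 and Col26a1 at -1.19. Directions and calls of the 40 differences of at least 2-fold were kept under every alternative tried. Averaging both probes moved Col5a3 to -1.28 in MAPC minus NS and to -0.83 in MAPC minus ESC, which is under 2-fold. Col26a1 moved to -1.41 in MAPC minus NS and to -1.07 in ESC minus NS. Pathway values depended on the processing too. Over the alternatives the smallest sizes in MAPC minus ESC were -1.64 for Dcn, -0.98 for Ctsk, -1.98 for Mmp3, -2.69 for Pcolce2 and -0.74 for Timp3. In MAPC minus NS they were -1.14 for Dcn, -0.99 for Lum, -2.01 for Mmp15, 0.90 for Timp1, 0.50 for Timp2 and -1.45 for Timp4.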

How the data were processed

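RNA of MAPC, ESC and NS was measured on 6 two-colour arrays, 2 per group. The deposited scanner files hold mean and local background intensity of each spot and dye as deposited by the authors, which the file headers credit to Feature Extraction A.7.5.1. The deposited series matrix holds log10 values with column medians from 2.95 to 2.97, whose centring and rule for floored spots stay unknown. Its scale and direction follow from its match to the scanner values. Signals were corrected with normexp (offset 50) and normalized within arrays by loess in limma 3.58.1 (R 4.3.3, files read with data.table, version 1.17.8; summaries and figures with pandas and matplotlib). Control and outlier spots were left out.

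Probes were named through the RefSeq gene list of assembly GRCm38.p6, with 15294 by accession, 72 by an older symbol, 15 by symbol and 25625 not named. Of these, 39403 probes were well above background on both arrays of at least 1 group and were tested. A single lmFit and eBayes fit of all 6 arrays had 3 residual degrees of freedom, with two-sided tests. It was tested on simulated data with known changes. Members of at least 2-fold difference (1 on the log2 scale) past the threshold are given on every array, others by counts and ranges. Members, classes, pathway lists and marker lists were chosen with earlier results of these data known. With 2 arrays per group, no permutation test of 1 gene can pass the threshold. Depth does not apply to arrays, and their number limits the precision. Columns of per-sample values without a sample numbered 0.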

Additional observations from a re-analysis of the deposited data

How the results depend on the processing

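The number of members past the threshold, 24 for MAPC minus ESC, 24 for MAPC minus NS and 23 for ESC minus NS, stayed within 1.5 times under every alternative tried. These were other background corrections and normalizations, the deposited processed signals, the deposited series matrix, the sample channel alone, other filters, other probe summaries and fewer arrays. Leaving out 1 array in turn gave 22 to 24, 20 to 25 and 20 to 23, where the lone array of a group was assumed to vary like the other groups. The lowest counts were 21, 19 and 16. Of 1989 values of 105 gene results under the alternatives, 1892 kept direction and side of the threshold, 76 fell short of it, 19 newly passed and 2 turned. Both turned with the sample channel alone: Col4a3 to -0.04 in MAPC minus NS (adjusted p = 0.869) and Col9a2 to -0.13 in ESC minus NS (adjusted p = 0.795), and the cause was not tested. Col9a3 in MAPC minus NS moved from -1.01 to -2.98 with the deposited processed signals, -0.22 without background subtraction and -0.55 with median centring, and the cause was not tested.

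With array number as a replicate block the counts were 24, 23 and 23, and the only gene call it changed was that of Col4a3. The labels do not say that the numbers pair samples, and same-numbered arrays correlated at 0.0944, 0.156 and 0.2079 in their deviations from the group means. Images of arrays of 1 number were read out on the same day, by the file headers, so a separate block for that day was not run. Small differences near the threshold and genes measured by 1 probe are the least certain results, since 2 arrays per group leave 3 degrees of freedom, and 17 matching genes had no named probe.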
